A study of Homo sapiens with 8 samples.

Results

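Hepcidin, encoded by HAMP, and 9 further genes of iron handling and of bone morphogenetic protein (BMP) signalling were followed in HepG2 cells treated with plastic antioxidants. The 10 genes were the transferrin gene TF, the transferrin receptor genes TFRC and TFR2, the ferritin genes FTH1 and FTL, the iron exporter gene SLC40A1, the iron importer gene SLC11A2, and the BMP target genes ID1 and SMAD7, besides HAMP. They were taken from the gene table by symbol, and all 10 were found among 60230 rows and were among the 13404 genes with enough counts to be tested. HepG2 is a cell line from a human hepatocellular carcinoma, and the cells of every group, controls included, had been transfected to overexpress the drug-metabolising enzyme CYP3A4 and were kept under blasticidin. Controls received 0.2% DMSO, and the other 3 groups received compound 4, compound 5 or compound 6 for 24 h, each with 2 replicates, labelled day 1 and day 2. All 3 compounds are hindered bisphenol antioxidants. Compounds 4 and 6 share a methylene bridge and a methyl group on each ring and differ in that compound 4 carries tert-butyl and compound 6 cyclohexyl groups, whereas compound 5 has an ethylidene bridge and a pair of tert-butyl groups on each ring. Each compound was given at its own IC50, in a narrow micromolar range by the study's selection, so that the molar doses were close but not matched, and compound and dose cannot be told apart. Whether the transfected line was 1 clone is not given in the sources used here.

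Hepcidin is a peptide hormone of hepatocytes that binds the exporter ferroportin (SLC40A1) and causes its degradation, which lowers the release of iron into plasma. Its transcription in hepatocytes is raised by BMP ligands through SMAD proteins and by interleukin 6 through STAT3. Iron in the cell acts on a different layer: when iron is scarce, iron regulatory proteins bind a short hairpin, the iron-responsive element, which blocks translation when it lies in the 5′ untranslated region of an mRNA and protects the mRNA from decay when it lies in the 3′ untranslated region. The values below are RNA counts and do not show translation.

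The elements are printed first because they separate members that iron is known to control through translation (FTH1, FTL, SLC40A1) from TFRC, which it controls through mRNA stability. The untranslated regions of 1 GENCODE 29 transcript of each member were searched on the transcript strand for the letters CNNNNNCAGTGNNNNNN with all 5 base pairs of the upper stem possible, G with T allowed. Each line gives 30 bases 5′ to 3′ in DNA letters, with the hairpin loop in capitals and the position in GRCh38.
FTH1 5′ element, chr11:61967573-61967602, minus strand: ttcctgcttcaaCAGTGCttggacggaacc
FTL 5′ element, chr19:48965335-48965364, plus strand: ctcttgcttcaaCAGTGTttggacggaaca
SLC40A1 5′ element, chr2:189580660-189580689, minus strand: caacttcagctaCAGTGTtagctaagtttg
TFRC 3′ element, chr3:196050978-196051007, minus strand: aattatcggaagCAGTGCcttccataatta
TFRC 3′ element, chr3:196050574-196050603, minus strand: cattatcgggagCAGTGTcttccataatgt
TFRC 3′ element, chr3:196050509-196050538, minus strand: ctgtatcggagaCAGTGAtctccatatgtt
TFRC 3′ element, chr3:196050462-196050491, minus strand: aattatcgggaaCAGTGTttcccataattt

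Such matches were rare in regions cut to the same length, among which that of the member itself was counted. They occurred in 0.105% of 7649 5′ regions at the length of that of FTH1, in 0.0805% of 8701 for FTL and in 0.155% of 3235 for SLC40A1. In 3′ regions of the length of that of TFRC, 0.816% of 3430 held at least 1, whereas TFRC held 4. One further match lay in the 3′ region of TF, which was 18020 bases long in the transcript used, and 23.1% of the 13 regions of that length held one. No match with all 5 base pairs possible was found in the transcripts searched for HAMP, TFR2, SLC11A2, ID1 and SMAD7. Matches of the letters with fewer possible pairs were not recorded.

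Libraries held between 9472261 and 13308975 counts. Levels are given as CPM, that is counts per 1000000 of the library total after TMM scaling in edgeR, and a count of 3 corresponded to 0.234 to 0.313 CPM. CYP3A4, the overexpressed gene, differed between groups, at 198 and 207 CPM under DMSO, 287 and 216 CPM after compound 4, 371 and 421 CPM after compound 5 and 170 and 171 CPM after compound 6. By edgeR's quasi-likelihood test it was 1.96-fold higher with compound 5 than with DMSO (adjusted p = 0.000724) and passed with neither of the other compounds (adjusted p = 0.162 and 0.344). It was also higher with compound 5 than with compounds 4 and 6 (1.57- and 2.32-fold, adjusted p = 0.0148 and 0.00138). With compound 4 it was 1.47-fold that with compound 6, which did not pass by edgeR (adjusted p = 0.249) but was called by DESeq2 (0.0217). The part of CYP3A4 in the results with any compound was not tested. The 6 hepatocyte markers ALB, AFP, APOA1, TTR, SERPINA1 and HNF4A summed to between 20226 and 29778 CPM in every library, and 9 markers of blood, endothelial and connective tissue cells to at most 1.89 CPM, with 4 of the 9 at 0 counts throughout. Replicate 1 of compound 4 and replicate 1 of compound 5 were merged libraries by their column names, each with 2 numbers whose meaning is not given.

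HAMP was higher with each of the compounds. This gene (ENSG00000105697, GRCh38 chr19:35280716-35285143, plus strand) was at 26.2 and 17.5 CPM in the DMSO replicates 1 and 2, at 53.9 and 59.6 CPM after compound 4, at 60.9 and 62.3 CPM after compound 5 and at 56.7 and 69.0 CPM after compound 6. All 6 treated libraries lay above both control libraries. The fitted log2 fold change against DMSO was 1.38 (standard error 0.17) with compound 4, 1.50 (standard error 0.17) with compound 5 and 1.53 (standard error 0.17) with compound 6, that is 2.61-, 2.83- and 2.90-fold. HAMP was chosen by its measured fold change with compound 4 in these data, which was known when the genes were listed, so its values are a description and no test is given for them. The 3 comparisons also share the same 2 control libraries, which lay apart: the gap between the DMSO replicates in HAMP was larger than that of 94.6% of the tested genes. Leaving out single libraries moved the log2 fold change to between 1.12 and 1.70 with compound 4, between 1.26 and 1.81 with compound 5 and between 1.27 and 1.85 with compound 6, the lower ends without DMSO replicate 2 and the upper ends without DMSO replicate 1. The order of the compounds was not resolved, as their log2 levels differed by 0.12 (compound 5 less compound 4), -0.03 (compound 5 less compound 6) and -0.15 (compound 4 less compound 6), each with a standard error of 0.16.

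**Figure D1:**
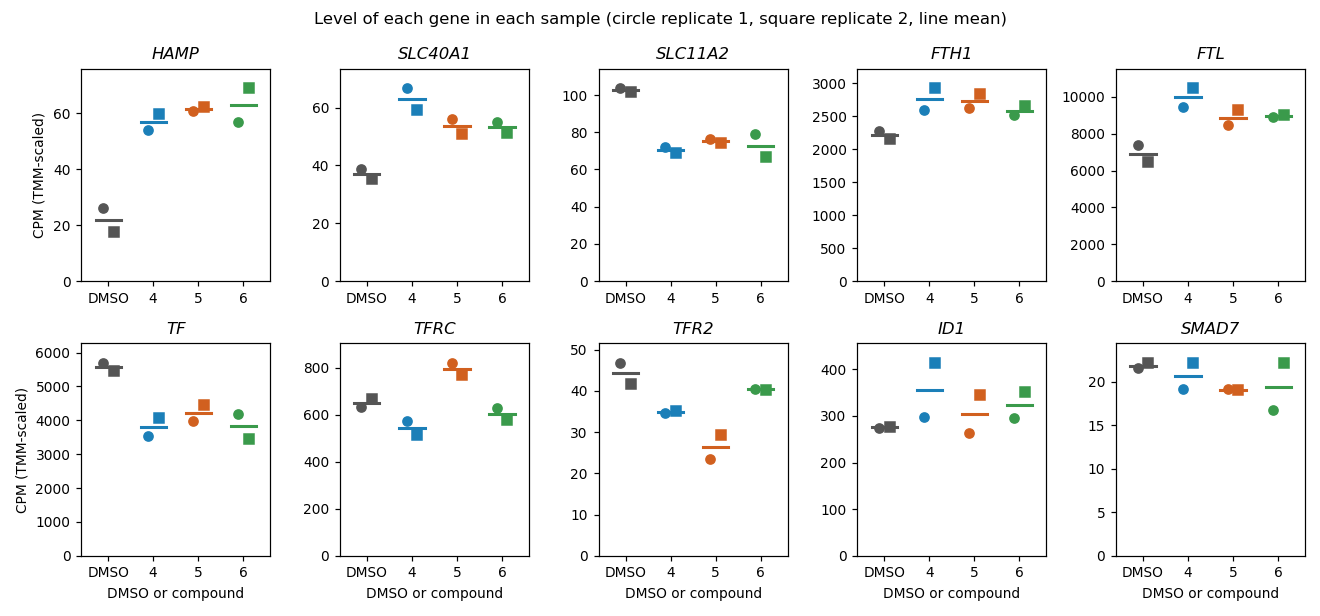
Level of each of the 10 genes in each library, in TMM-scaled CPM on linear axes from 0, by group (DMSO or compound 4, 5 or 6); circles are replicate 1, squares replicate 2 and lines the mean of both. HAMP, SLC40A1, FTH1 and FTL lie above both DMSO libraries in every treated library, and SLC11A2, TF and TFR2 below them. TFRC lies above both DMSO libraries only with compound 5.

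SLC40A1 rose and SLC11A2 fell with every compound. SLC40A1 (ENSG00000138449, GRCh38 chr2:189560579-189583758, minus strand) encodes ferroportin, the target of hepcidin and the only known iron exporter of mammalian cells. Its level was 38.9 and 35.2 CPM under DMSO, 66.8 and 59.2 CPM after compound 4, 56.2 and 50.8 CPM after compound 5 and 55.1 and 51.3 CPM after compound 6. The treated libraries all lay above the controls, and those of compound 4 lay highest. SLC40A1 rose by 0.77 on the log2 scale with compound 4 (standard error 0.12, adjusted p = 0.00266), by 0.53 with compound 5 (standard error 0.12, adjusted p = 0.00795) and by 0.52 with compound 6 (standard error 0.12, adjusted p = 0.0359), by edgeR's quasi-likelihood test with Benjamini-Hochberg adjustment over the 13404 genes, as for all adjusted p-values below. Because the members were listed with results of these data known, their p-values describe the size of the changes against the spread and are no independent evidence. Leaving out DMSO replicate 2 gave adjusted p-values of 0.052, 0.0652 and 0.255 for compounds 4, 5 and 6, so that none of the calls held. The call was also lost without compound 5 replicate 1 for compound 5 (adjusted p = 0.0659), and for compound 6 without DMSO replicate 1 (0.126), compound 5 replicate 1 (0.0581) or replicate 2 (0.0622), or compound 6 replicate 1 (0.0703) or replicate 2 (0.178).

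SLC11A2 (ENSG00000110911, GRCh38 chr12:50979401-51028566, minus strand) encodes DMT1, which carries ferrous iron across the plasma membrane and out of endosomes. It was at 104 and 102 CPM under DMSO, at 72.1 and 68.7 CPM after compound 4, at 76.3 and 74.4 CPM after compound 5 and at 78.8 and 66.9 CPM after compound 6. The controls were close to each other and lay above all treated libraries. It fell by 0.55 on the log2 scale with compound 4 (standard error 0.11, adjusted p = 0.00968), by 0.45 with compound 5 (standard error 0.11, adjusted p = 0.0121) and by 0.50 with compound 6 (standard error 0.11, adjusted p = 0.0318). The counts do not separate the isoforms of SLC11A2, of which some carry an iron-responsive element. Without DMSO replicate 1 the adjusted p-values of the 3 comparisons were 0.0671, 0.0782 and 0.171, and without DMSO replicate 2 they were 0.0816, 0.0706 and 0.189. The call of compound 5 was also lost without either of its own replicates (0.083 and 0.0832), and that of compound 6 without compound 5 replicate 1 (0.0708) or replicate 2 (0.0638) or compound 6 replicate 2 (0.321).

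The ferritin genes lay above the controls in all treated libraries, and FTL, but not FTH1, passed the test with compounds 4 and 5. Ferritin is the iron storage shell of the cell, of which FTH1 encodes the heavy chain, which oxidises iron, and FTL the light chain. FTL (ENSG00000087086, GRCh38 chr19:48965301-48966878, plus strand) was at 7394 and 6444 CPM under DMSO, at 9466 and 10491 CPM after compound 4, at 8456 and 9279 CPM after compound 5 and at 8934 and 9002 CPM after compound 6. Compound 4 gave the highest libraries, and the DMSO replicates differed by more than those of compound 6. FTL rose by 0.53 on the log2 scale with compound 4 (standard error 0.11, adjusted p = 0.0128) and by 0.36 with compound 5 (standard error 0.11, adjusted p = 0.0356), whereas the 0.37 of compound 6 did not pass (standard error 0.11, adjusted p = 0.0844) but was called by DESeq2 (adjusted p = 0.0134) and with no filter on low counts (0.00221). Fitting the replicate number as a block gave compound 5 an adjusted p of 0.0507. The call of compound 4 was lost without DMSO replicate 2 (adjusted p = 0.134), and that of compound 5 without DMSO replicate 1 (0.0528), DMSO replicate 2 (0.173), compound 5 replicate 1 (0.0589) or compound 5 replicate 2 (0.182). The call of compound 4 was also lost in a fit of only the groups compared (0.0519), and that of compound 5 with upper-quartile scaling (0.107) and with library size only (0.0895). Without compound 4 replicate 2, FTL passed with compound 6 (adjusted p = 0.0427).

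FTH1 (ENSG00000167996, GRCh38 chr11:61959718-61967660, minus strand) was at 2272 and 2153 CPM under DMSO, at 2591 and 2931 CPM after compound 4, at 2623 and 2840 CPM after compound 5 and at 2513 and 2653 CPM after compound 6. All treated libraries lay above the controls. None of the changes passed the test, although those with compounds 4 and 5 were close to it. The log2 fold changes were 0.32 (standard error 0.11, adjusted p = 0.0752), 0.30 (standard error 0.11, adjusted p = 0.0524) and 0.22 (standard error 0.11, adjusted p = 0.27). FTH1 passed with compound 4 without compound 4 replicate 1 (adjusted p = 0.0433), and with compound 5 without either replicate of compound 4 (0.0313 and 0.0222) or of compound 6 (0.0488 and 0.0484). DESeq2 called it with compounds 4 and 5 (adjusted p = 0.0267 and 0.00859), as did edgeR with no filter on low counts (0.0271 and 0.0109), and with compound 5 it also passed with RLE scaling (0.0392) and with only the groups compared (0.0279). Per kilobase of transcript, the level of FTL was 4.38 times that of FTH1 with DMSO and 5.06, 4.54 and 4.86 times with compounds 4, 5 and 6.

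Ferritin has many processed pseudogenes, and 27.1% of the 31-base words of FTH1 and 33.3% of those of FTL also occurred in transcripts of other genes in GENCODE 29, so that the division of reads is uncertain. Of the 25 FTH1 pseudogenes listed, 11 had counts, most of them FTH1P2 and FTH1P7, and together they held 0.535% to 0.770% of the counts of FTH1 and its pseudogenes in each library. Of the 16 FTL pseudogenes, 4 had counts, most of them FTLP14 and FTLP3, with 0.0127% to 0.0282%. Adding these counts to their parent genes, an alternative chosen after seeing the data, changed no call.

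TF fell with each compound. Transferrin (ENSG00000091513, GRCh38 chr3:133745956-133796640, plus strand) carries iron in plasma and is secreted by hepatocytes. TF was at 5704 and 5469 CPM under DMSO, at 3538 and 4058 CPM after compound 4, at 3979 and 4464 CPM after compound 5 and at 4186 and 3458 CPM after compound 6. Every treated library lay below both controls, and the ranges of the 3 compounds overlapped. TF fell by 0.56 on the log2 scale with compound 4 (standard error 0.12, adjusted p = 0.0161), by 0.40 with compound 5 (standard error 0.12, adjusted p = 0.0332) and by 0.55 with compound 6 (standard error 0.12, adjusted p = 0.0359; 0.0547 with the replicate block). Without DMSO replicate 1 the adjusted p-values were 0.0915, 0.149 and 0.179, and without DMSO replicate 2 they were 0.0907, 0.109 and 0.179. The calls were also lost for compound 4 without its replicate 1 (0.0555), for compound 5 without its replicate 1 (0.225) or 2 (0.0634), and for compound 6 without its replicate 2 (0.365) or without compound 5 replicate 1 (0.0579) or 2 (0.0529). The summed level of the 6 hepatocyte markers, most of it ALB, was also lower with the compounds, from 26417 to 29778 CPM under DMSO to 20704 to 23883 CPM after compound 4, 20226 to 21231 CPM after compound 5 and 20293 to 25202 CPM after compound 6. The markers did not all move that way. AFP and APOA1 fell with compound 4 (log2 fold changes of -0.63 and -0.66, adjusted p = 0.00861 and 0.0312) and with compound 5 (-0.68 and -0.78, adjusted p = 0.00278 and 0.00757), APOA1 also with compound 6 (-0.74, adjusted p = 0.0375, or 0.0576 with the block), and TTR rose with compound 4 (0.66, adjusted p = 0.0365). ALB, SERPINA1 and HNF4A passed with no compound, and HNF4A lay at 0.08, -0.16 and 0.02. The part of the hepatocyte programme in the result for TF was not tested, and in such bulk samples fewer cells of a type and less RNA per cell cannot be told apart.

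Of the transferrin receptor genes, TFR2 passed only with compound 5, where it fell, and TFRC passed against DMSO with no compound. TFRC (ENSG00000072274, GRCh38 chr3:196027183-196082189, minus strand) encodes the receptor that takes up iron-loaded transferrin in most cells, and its mRNA carries the 4 elements printed above. It was at 635 and 667 CPM under DMSO, at 575 and 513 CPM after compound 4, at 822 and 769 CPM after compound 5 and at 629 and 578 CPM after compound 6. Compound 5 lay above all other libraries and compounds 4 and 6 below both controls. Against DMSO no change of TFRC passed the test, with log2 fold changes of -0.26 (standard error 0.10, adjusted p = 0.135), 0.29 (standard error 0.10, adjusted p = 0.0591) and -0.11 (standard error 0.10, adjusted p = 0.614). With compound 5 TFRC passed without compound 4 replicate 1 (adjusted p = 0.035) or replicate 2 (0.0231), with DESeq2 (0.0181), with RLE scaling (0.046), with no filter on low counts (0.0343) and with only the groups compared (0.0214).

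TFR2 (ENSG00000106327, GRCh38 chr7:100620416-100642779, minus strand) is the hepatocyte receptor that senses loaded transferrin upstream of hepcidin. Its level was 46.9 and 41.8 CPM under DMSO, 34.5 and 35.1 CPM after compound 4, 23.6 and 29.2 CPM after compound 5 and 40.6 and 40.3 CPM after compound 6. All treated libraries were below the controls, compound 5 the furthest and compound 6 the least. TFR2 fell by 0.74 on the log2 scale with compound 5 (standard error 0.13, adjusted p = 0.00248), which held in every alternative run, single libraries left out included. The log2 fold changes with compounds 4 and 6 were -0.35 (standard error 0.13, adjusted p = 0.109) and -0.13 (standard error 0.13, adjusted p = 0.624).

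The BMP target genes among the members did not pass the test in any comparison with DMSO, except ID1 with compound 4 under the 2 alternatives given with its values. ID1 (ENSG00000125968, GRCh38 chr20:31605283-31606515, plus strand) encodes an inhibitor of basic helix-loop-helix factors and is a direct target of BMP-activated SMADs. ID1 was at 274 and 277 CPM under DMSO, at 297 and 414 CPM after compound 4, at 264 and 345 CPM after compound 5 and at 296 and 351 CPM after compound 6. Replicate 2 was higher than replicate 1 in each compound group, by ratios of 1.40, 1.31 and 1.19 against 1.01 with DMSO, and the libraries of compound 5 lay on either side of the controls. The log2 fold changes of ID1 were 0.37 (standard error 0.17, adjusted p = 0.196), 0.14 (standard error 0.17, adjusted p = 0.559) and 0.23 (standard error 0.17, adjusted p = 0.502). With compound 4, ID1 passed without compound 4 replicate 1, at 0.59 (adjusted p = 0.0307), and with no filter on low counts, at 0.37 (adjusted p = 0.0275), and without compound 5 replicate 2 its value with compound 5 was -0.065.

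SMAD7 (ENSG00000101665, GRCh38 chr18:48919853-48952052, minus strand) encodes an inhibitory SMAD that is induced by BMP and TGF-beta signals and dampens hepcidin transcription. It was at 21.6 and 22.2 CPM under DMSO, at 19.2 and 22.2 CPM after compound 4, at 19.2 and 19.1 CPM after compound 5 and at 16.8 and 22.2 CPM after compound 6. The highest libraries of compounds 4 and 6 reached the level of the controls. The log2 fold changes were -0.08 (standard error 0.15, adjusted p = 0.786), -0.19 (standard error 0.15, adjusted p = 0.37) and -0.16 (standard error 0.16, adjusted p = 0.617). Without compound 4 replicate 1 the value with compound 4 was 0.023, and without compound 6 replicate 1 that with compound 6 was 0.045.

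**Figure D2:**
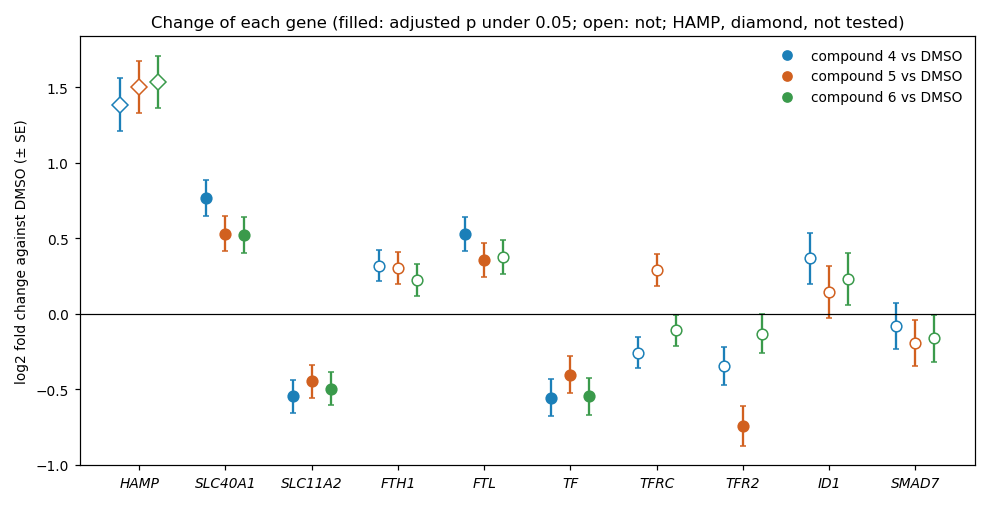
Log2 fold change of each gene against DMSO with compounds 4, 5 and 6, with error bars of 1 standard error from the edgeR fit; filled symbols passed an adjusted p of 0.05, open circles did not, and the diamonds of HAMP were not tested. SLC40A1 (0.52 to 0.77) lies above 0 and SLC11A2 (-0.55 to -0.45) and TF (-0.56 to -0.40) below 0 for all 3 compounds. Of the 3 compounds, compound 5 gives TFR2 its lowest value (-0.74) and TFRC its highest (0.29, not passed).

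Of the 9 members other than HAMP, 4 passed with compound 4, beside 11.9% of all tested genes. FTL and SLC40A1 rose and SLC11A2 and TF fell, where 6.5% of all genes were called higher and 5.42% lower. For compound 5 the count was 5, beside 28.1% of all genes, as TFR2 joined the genes that fell, with 13.9% of all genes called higher and 14.2% lower. For compound 6 it was 3, beside 4.4% of all genes, namely SLC40A1 upward and SLC11A2 and TF downward, with 2.8% of all genes called higher and 1.6% lower. SLC40A1, SLC11A2 and TF passed in each of the 3 comparisons, which share their controls. The count depended on single libraries. For compound 4 it was 2 without DMSO replicate 1, 0 without DMSO replicate 2 and 4 or 5 otherwise. For compound 5 it was 2 and 1 without DMSO replicates 1 and 2, 1 and 2 without compound 5 replicates 1 and 2, and 6 or 7 otherwise. For compound 6 it was 0 without either DMSO replicate, either compound 5 replicate or compound 6 replicate 2, 2 without compound 6 replicate 1, and 3 and 4 without compound 4 replicates 1 and 2. By levels alone, 4 of these 9 members lay above and 4 below both controls with each compound, beside 27.5% and 27.1% of all tested genes for compound 4, 32.9% and 37.3% for compound 5 and 26.3% and 26.6% for compound 6.

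Direct comparisons of the compounds asked whether the genes responded differently to them, each at its own IC50. TFRC was higher with compound 5 than with compound 4 by 0.55 on the log2 scale (95% interval 0.32 to 0.78, adjusted p = 0.0112) and than with compound 6 by 0.40 (0.17 to 0.63, adjusted p = 0.0380). TFR2 was lower with compound 5 than with compound 6, by a log2 difference of -0.61 (-0.90 to -0.32, adjusted p = 0.0179), while its difference from compound 4 of -0.40 did not pass (-0.69 to -0.11, adjusted p = 0.0663). Thus 1 of 9 members passed between compounds 5 and 4 and 2 of 9 between compounds 5 and 6, beside 13.9% and 9.91% of all tested genes. Of all genes, 6.91% were called higher and 7.04% lower in the first of these comparisons and 4.76% and 5.16% in the second. By levels alone, 2 of the 9 members lay above and 3 below between compounds 5 and 4, beside 28.3% and 31.8% of all genes, 1 and 1 between compounds 5 and 6, beside 28.5% and 30.2%, and 2 and 2 between compounds 4 and 6, beside 18.8% and 17.7%. Single libraries decided these calls. Between compounds 5 and 4, TFRC lost its call without compound 5 replicate 1 (adjusted p = 0.0875) or replicate 2 (0.065). Between compounds 5 and 6, it lost its call without DMSO replicate 1 (0.0659) or 2 (0.0545), compound 5 replicate 1 (0.201) or 2 (0.117), or compound 6 replicate 1 (0.113) or 2 (0.125), and also with upper-quartile scaling (0.0798) and with library size only (0.0756). TFR2 lost its call between compounds 5 and 6 without compound 5 replicate 1 (0.155) or compound 6 replicate 1 (0.0961) or 2 (0.0564). With upper-quartile scaling and with library size only, TFR2 passed between compounds 5 and 4 (0.0397 with each). Between compounds 4 and 6, which differ in tert-butyl against cyclohexyl groups, 0 of 9 passed by edgeR, 0 by DESeq2 and 0 at an unadjusted p under 0.05, beside 0.0448% of all genes called by edgeR (0.0224% in each direction). Of all 13404 tested genes, DESeq2 called 75, and 1315 had an unadjusted p under 0.05 by edgeR. The intervals there do not show equal action. The widest was that of ID1, from -0.24 to 0.51, and that of SLC40A1 ran from -0.01 to 0.50, with a difference of 0.24 (adjusted p = 0.523). For the 2 comparisons with compound 5, intervals of the other members that did not pass reached from -0.60 (ID1, against compound 4) to 0.43 (TF, against compound 4).

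**Figure D3:**
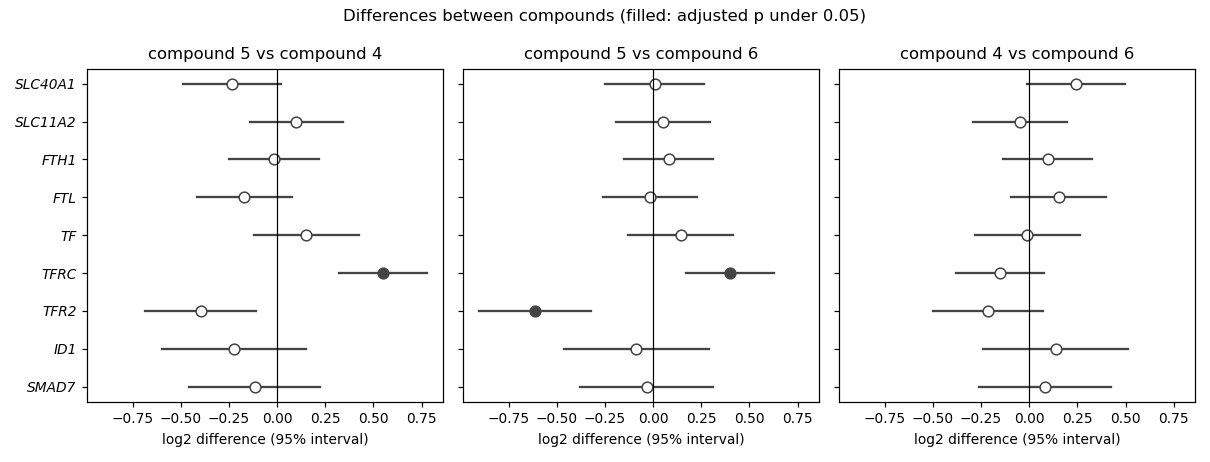
Log2 difference between compounds for the 9 members other than HAMP, one panel each for compound 5 less 4, compound 5 less 6 and compound 4 less 6, with 95% intervals from the edgeR fit; filled points passed an adjusted p of 0.05. The filled points are TFRC at 0.55 and 0.40 and TFR2 at -0.61, and every interval between compounds 4 and 6 spans 0.

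The other genes of these pathways were read from 6 lists of 105 genes in all, of which 87 could be tested. The 18 others reached at most 11 counts in a library and 9 of them were at 0 throughout. Of the 87, 13 passed after compound 4 (14.9%), of which 7 rose and 6 fell, 31 after compound 5 (35.6%), of which 16 rose and 15 fell, and 5 after compound 6 (5.75%), of which 4 rose and 1 fell. Over all tested genes the shares were 11.9%, 28.1% and 4.4%. With compound 5 the even split rested on the scaling: 9 rose and 22 fell with upper-quartile scaling, and 8 and 23 with library size only. Over all genes the same scalings moved it from 1857 higher and 1906 lower to 1449 and 2515 and to 1358 and 2718. PCBP1, CDC42BPA, ALAS1, SLC25A28, ACVR2B and SOCS3 were among those that lost their calls with compound 5 under both scalings, and JAK1 lost its call with library size only. DESeq2 called 11, 24 and 9 of the 87 and did not call INHBB and SOCS3 with compound 4 (adjusted p = 0.0734 and 0.124), nor MELTF, UROS, FLVCR1, SLC25A28, NFS1, ISCA2, SMAD6 and SOCS3 with compound 5 (adjusted p between 0.0515 and 0.186). Over all 13404 tested genes DESeq2 called 1384, 2944 and 717 with compounds 4, 5 and 6. The median log2 fold changes of the 87 were 0.04, -0.05 and -0.06, beside 0.00, -0.03 and 0.00 over all genes. Without DMSO replicates 1 and 2 the counts were 6 and 5 for compound 4, 8 and 12 for compound 5 and 1 and 0 for compound 6. They were 7 and 13 for compound 5 without its replicates 1 and 2. For compound 6 they were 10 and 1 without its own replicates 1 and 2, and 11 and 13 without compound 4 replicates 1 and 2.

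**Figure D4:**
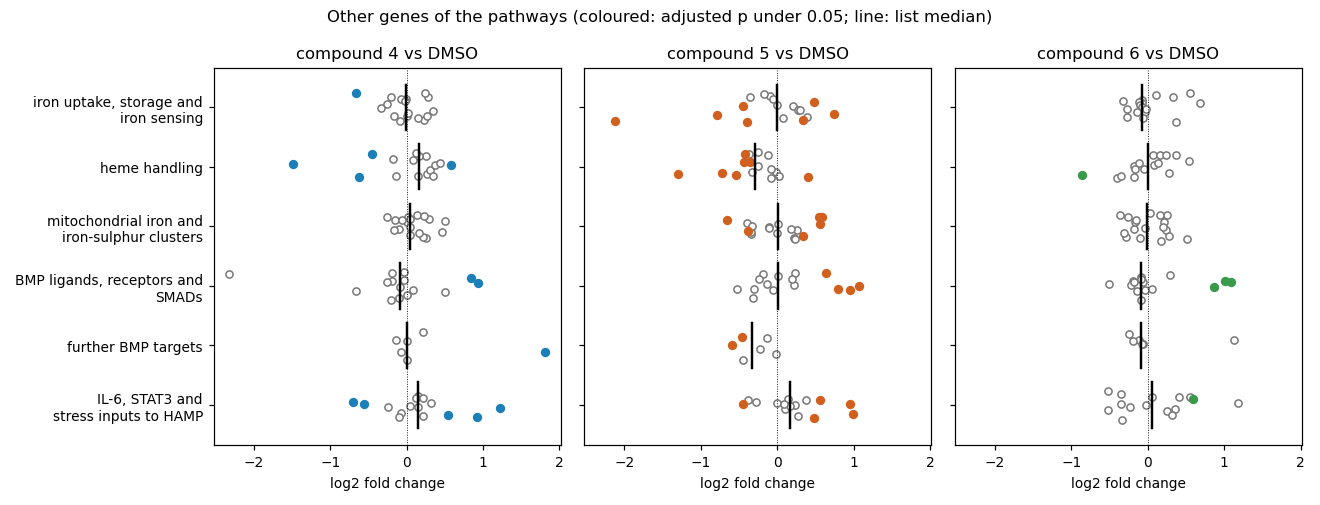
Log2 fold change against DMSO of the 87 tested genes of the 6 pathway lists, one panel per compound and one row per list; coloured points passed an adjusted p of 0.05 and vertical bars are list medians. Compound 5 has 31 coloured points on both sides of 0 and compounds 4 and 6 have 13 and 5.

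Among BMP ligands, receptors and SMADs (15 of 20 tested), 2 genes rose with compound 4, 4 with compound 5 and 3 with compound 6, and none was called lower in these 3 comparisons with TMM scaling and no block. These counts were 13.3%, 26.7% and 20% of the 15, beside 11.9%, 28.1% and 4.4% of all tested genes called in either direction. Of all genes, 6.5%, 13.9% and 2.8% were called higher and 5.42%, 14.2% and 1.6% lower. Of the 15 log2 fold changes, 4 were above 0 with compound 4 (median -0.09), 8 with compound 5 (median 0.01) and 5 with compound 6 (median -0.09). BMP4, a further ligand, lay at -0.51 with compound 6 (adjusted p = 0.0607), which DESeq2 called (0.0184), as did edgeR with the replicate block (0.0452), and with compound 5 it was called lower with library size only (-0.40, adjusted p = 0.0404). NEO1, a partner of hemojuvelin at the cell surface, lay at -0.66 with compound 4 (adjusted p = 0.0542) and was called lower with upper-quartile scaling (-0.68, adjusted p = 0.0451) and with library size only (-0.70, adjusted p = 0.047). ACVR1, a type I receptor for BMPs, was at 9.25 and 11.6 CPM under DMSO and between 16.7 and 23.3 CPM in all treated libraries. It rose by 0.84, 1.07 and 0.86 on the log2 scale (adjusted p = 0.0102, 0.00136 and 0.0216). FURIN, the protease that cuts prohepcidin and BMP precursors to their mature forms, was at 56.3 and 57.5 CPM under DMSO and between 103 and 138 CPM with the compounds, and it rose by 0.94, 0.96 and 1.10 (adjusted p = 0.00217, 0.000857 and 0.00465). BMP6, the main ligand that raises hepcidin in response to iron, was at 9.75 and 13.2 CPM under DMSO, 15.6 and 16.8 CPM after compound 4, 20.3 and 19.5 CPM after compound 5 and 19.5 and 26.6 CPM after compound 6. It passed with compounds 5 and 6, at 0.79 and 1.01 (adjusted p = 0.0108 and 0.0166), and was at 0.50 with compound 4 (adjusted p = 0.117). HJV, the BMP co-receptor for hepcidin induction, had 0 counts in all 8 libraries, which allows up to 0.313 CPM. TMPRSS6, a protease that lowers hepcidin, was at or below 1.15 CPM throughout, and its log2 fold change of -2.32 with compound 4 did not pass (standard error 0.76, adjusted p = 0.0751).

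Of the 6 further BMP targets, all tested, 1 passed with compound 4 and 2 with compound 5 (1 by DESeq2, which did not call SMAD6, adjusted p = 0.0874). The edgeR counts were 16.7% and 33.3% of the list, beside 11.9% and 28.1% of all tested genes. With compound 5 all 6 log2 fold changes were below 0 (median -0.33, beside -0.03 over all genes), whereas with compound 4 those of 4 were above 0 and with compound 6 that of 1. The log2 differences of compound 5 from compounds 4 and 6 were also below 0 for all 6 (medians -0.45 and -0.30), but 2 passed in the first comparison and 1 in the second, where DESeq2 called 0 and 3 had an unadjusted p under 0.05. These comparisons and that with DMSO share the compound 5 libraries. Over all 13404 tested genes the medians were -0.03 and -0.02, with 7159 and 7038 genes below 0, and edgeR called 1869 and 1329. In the second comparison DESeq2 called 1145 of all genes, and 3686 had an unadjusted p under 0.05. ATOH8, a transcription factor induced by BMP signals, was at 2.07 and 1.73 CPM under DMSO, 6.84 and 6.47 CPM after compound 4, 2.29 and 1.49 CPM after compound 5 and 3.54 and 4.69 CPM after compound 6. It rose by 1.81 with compound 4 (standard error 0.29, adjusted p = 0.00352), and the other values were -0.01 (adjusted p = 0.985) and 1.13 (adjusted p = 0.0646). ATOH8 was lower with compound 5 than with compound 4 (log2 difference -1.82, adjusted p = 0.00676) and than with compound 6 (-1.14, adjusted p = 0.0413, or 0.0539 with the replicate block). The other called members of this list fell with compound 5, namely ID2 by 0.46 (adjusted p = 0.0159) and SMAD6, a further inhibitory SMAD, by 0.60 (adjusted p = 0.0165), while ID3 lay at -0.08, -0.22 and -0.06 with the 3 compounds and passed in none (adjusted p = 0.778, 0.282 and 0.868). ID2 also differed directly, being lower with compound 5 than with compound 4 (log2 difference -0.68, adjusted p = 0.00926). With compound 6, 0 of the 6 further targets passed by edgeR or DESeq2, and 1 had an unadjusted p under 0.05. Of all 13404 tested genes, 590 passed by edgeR and 717 by DESeq2 there, and 2680 had an unadjusted p under 0.05.

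On the interleukin 6 side, 15 of 21 genes were tested. IL6R, the receptor chain that binds interleukin 6, was at 69.9 and 66.4 CPM under DMSO, 131 and 128 CPM after compound 4, 136 and 127 CPM after compound 5 and 94.7 and 111 CPM after compound 6. It rose in all comparisons, by 0.93, 0.95 and 0.59 (adjusted p = 0.000972, 0.00031 and 0.0171). INHBB, which encodes the activin B subunit, rose by 0.54 and 0.57 with compounds 4 and 5 (adjusted p = 0.0242 and 0.0106). SOCS3, a feedback target of STAT3, was low, at 1.87 and 1.32 CPM under DMSO and at 2.75 to 4.12 CPM with the compounds. It rose by 1.23 with compound 4 (adjusted p = 0.0338) and by 0.99 with compound 5 (adjusted p = 0.0458, or 0.058 with the replicate block), and the 1.18 of compound 6 did not pass (adjusted p = 0.0689). JAK1, a kinase of the receptor, rose with compound 5 by 0.48 (adjusted p = 0.0243). STAT3 itself lay at -0.10, 0.10 and -0.03 and passed in no comparison (adjusted p = 0.586, 0.46 and 0.909). The fibrinogen genes FGA and FGG, acute phase products of hepatocytes, fell with compound 4 by 0.56 (adjusted p = 0.0413, or 0.0516 with the block) and 0.70 (adjusted p = 0.0233). With compound 5 FGA was at 649 and 810 CPM, beside 624 and 617 CPM under DMSO, and lay at 0.23 (adjusted p = 0.278), and FGG lay at 0.17 (adjusted p = 0.48). With compound 6 both lay at -0.52 and did not pass (adjusted p = 0.0824 for FGA and 0.113 for FGG), but DESeq2 called both lower (0.0118 and 0.0223). FGA, FGB and FGG were higher with compound 5 than with compound 4, by log2 differences of 0.79, 0.52 and 0.87 (adjusted p = 0.013, 0.0416 and 0.0128), and than with compound 6, by 0.76, 0.61 and 0.69 (adjusted p = 0.0155, 0.0273 and 0.0314). CEBPA, a hepatocyte factor that drives basal HAMP transcription, fell with compound 5 by 0.45 (adjusted p = 0.0489, or 0.0505 with the block and 0.0568 with RLE scaling). IL6, CRP and SAA1 had 0 counts in every library.

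In the list of iron uptake, storage and sensing (17 of 23 tested), 1 gene passed with compound 4, 7 with compound 5 and 0 with compound 6 by edgeR, where DESeq2 called 1 and 4 had an unadjusted p under 0.05. By edgeR this was 5.88%, 41.2% and 0% of the 17, beside 11.9%, 28.1% and 4.4% of all tested genes. With compound 6, DESeq2 called 717 of all 13404 tested genes, and 2680 had an unadjusted p under 0.05. ACO1, which becomes an iron regulatory protein when it lacks its iron-sulphur cluster, was at 58.3 and 57.5 CPM under DMSO, 36.8 and 36.5 CPM after compound 4, 41.6 and 42.9 CPM after compound 5 and 50.7 and 45.3 CPM after compound 6. It fell by 0.66 and 0.45 with compounds 4 and 5 (adjusted p = 0.00352 and 0.0102), and lay at -0.27 with compound 6 (adjusted p = 0.178). IREB2, the other iron regulatory protein, lay at -0.26, 0.07 and -0.08 (adjusted p = 0.208, 0.698 and 0.772) and FBXL5, the ubiquitin ligase subunit that removes it, at -0.01, -0.10 and -0.08 (adjusted p = 0.981, 0.666 and 0.825). NCOA4, which delivers ferritin to lysosomes, fell with compound 5 by 0.39 (adjusted p = 0.018). Also with compound 5, MELTF, which encodes melanotransferrin, fell by 0.79 (adjusted p = 0.0321) and HFE, a partner of the transferrin receptors, by 2.13 from 3.25 and 1.32 CPM to 0.367 and 0.628 CPM (adjusted p = 0.0222). EPAS1, a hypoxia-inducible factor whose mRNA carries an iron-responsive element, rose by 0.48 (adjusted p = 0.011), PCBP1, an iron chaperone for ferritin, by 0.34 (adjusted p = 0.0245) and the kinase gene CDC42BPA by 0.74 (adjusted p = 0.0426, or 0.0502 with the block).

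Of the heme genes (16 of 17 tested), 4 passed with compound 4, 7 with compound 5 and 1 with compound 6, most of those called being lower. These were 25%, 43.8% and 6.25% of the 16, beside 11.9%, 28.1% and 4.4% of all tested genes. Of all genes, 5.42%, 14.2% and 1.6% were called lower. Over the 16 genes, 11 log2 fold changes were above 0 with compound 4 (median 0.16), 2 with compound 5 (median -0.30) and 8 with compound 6 (median 0.01). HP encodes haptoglobin, which binds free haemoglobin in plasma. HP was at 31.1 and 32.6 CPM under DMSO, 9.06 and 13.5 CPM after compound 4, 11.6 and 14.1 CPM after compound 5 and 19.0 and 16.1 CPM after compound 6, and so fell by 1.49, 1.30 and 0.86 (adjusted p = 0.00122, 0.000805 and 0.0278). FLVCR1, a heme exporter by its original description, fell by 0.63 and 0.43 with compounds 4 and 5 (adjusted p = 0.00829 and 0.0224) and CPOX, of heme synthesis, by 0.46 and 0.42 (adjusted p = 0.0187 and 0.0133). With compound 5 ALAD and UROS, also of heme synthesis, fell by 0.72 and 0.54 (adjusted p = 0.00403 and 0.0277), whereas ALAS1, the first and rate-limiting enzyme, rose by 0.40 (adjusted p = 0.02). HMOX1, which breaks heme down and releases its iron, fell by 0.36 with compound 5 (adjusted p = 0.0256) and lay at 0.25 and -0.05 with compounds 4 and 6 (adjusted p = 0.142 and 0.839). Directly compared, HMOX1 was lower with compound 5 than with compound 4 by a log2 difference of -0.60 (adjusted p = 0.008). BLVRA, which reduces the product of heme breakdown to bilirubin, rose with compound 4 by 0.58 (adjusted p = 0.0121).

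For mitochondrial iron and iron-sulphur clusters all 18 genes were tested, and 6 passed with compound 5, where 4 rose and 2 fell, against 3 by DESeq2. The 6 were 33.3% of the list, beside 28.1% of all tested genes (13.9% higher and 14.2% lower). DESeq2 called 2944 of all 13404 tested genes with compound 5. The mitochondrial iron importer genes SLC25A37 and SLC25A28 rose by 0.58 and 0.55 (adjusted p = 0.0135 and 0.0292), as did the chaperone gene HSPA9 by 0.55 (adjusted p = 0.00646), whereas ISCA2 and NFS1, which encode proteins of cluster assembly, fell by 0.66 and 0.38 (adjusted p = 0.00966 and 0.0264). With compounds 4 and 6 edgeR and DESeq2 each called 0 of the 18, and 4 and 3 had an unadjusted p under 0.05. Of all 13404 tested genes, edgeR called 1598 and 590 and DESeq2 1384 and 717 with these compounds, and 3619 and 2680 had an unadjusted p under 0.05. SLC25A37 was at 0.47 and 0.51 in these comparisons (adjusted p = 0.0626 and 0.076, or 0.0316 and 0.0483 with the replicate block).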

How the data were processed

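Per group, 2 replicates of DMSO control and compounds 4, 5 and 6, were measured by RNA sequencing on directional libraries. The authors checked reads with FastQC (0.12.0), quantified transcripts with Salmon (1.5.0) on GENCODE 38 (GRCh38) and summed them per gene with tximeta. The deposited expected counts were whole numbers and were used as they stood. Gene symbols were matched for 60089 of 60230 rows, and sequences and coordinates came from GENCODE 29 (GRCh38), so transcript models may differ from those counted. Library totals were 9472261 to 13308975; a floor of 3 counts covers counting error only. Replicates differed by more than sampling noise in each group (chi-square per degree of freedom 5.82 to 18.4).

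Genes passing filterByExpr (13404) were fitted in edgeR (4.0.16, R 4.3.3) with TMM scaling, all 8 samples and 4 groups, by the quasi-likelihood test with Benjamini-Hochberg adjustment and a cutoff of 0.05. The script was tested on simulated data. Alternatives were other scalings, DESeq2 (1.42.0), other filters, the replicate number as a block, only the groups compared, and leaving out each sample. The replicate number is the day given in the sample labels. The deviations of same-numbered samples from their group means had correlations of -0.108 to 0.218 over 6 pairs of groups, of which 3 were below 0. The labels do not say whether replicates were separate cultures or what the day marks, so p-values measure only the spread between these samples, which may be technical.

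The members and pathway lists were chosen with earlier results of these data known. Named were all members, up to 3 called genes per list, direction and compound with the largest change and a mean of at least 1 CPM, and fixed genes that bear on the members (HJV, TMPRSS6, BMP6, ID2, ID3, SMAD6, IREB2, ACO1, FBXL5, NCOA4, HMOX1, STAT3, SOCS3). Ferritin pseudogenes were named by most reads. Genes most like HAMP were the 5 with a mean of at least 5 CPM and the smallest root mean square difference of their 3 fold changes, of which 1 is not reported here. IL6, CRP, SAA1, FGB, ACVR2B, BMP4, NEO1 and the single hepatocyte markers were named after their values were seen.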

Additional observations from a re-analysis of the deposited data

How the results depend on the processing

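Over 486 alternative values of the members' log2 fold changes against DMSO, 3 changed sign, all on leaving out a sample and all of changes that had not passed: ID1 with compound 5 (-0.065 to 0.35 without either replicate of compound 5) and SMAD7 with compound 4 (-0.18 to 0.023 without either of its replicates) and with compound 6 (-0.37 to 0.045 likewise). A further 42 lost a call, 37 of them on leaving out a sample, and 22 gained one. Of 438 alternative values of the 9 tested members' differences between compounds, 34 changed sign, 11 of them with no sample left out, all of differences that had not passed and lay at most 0.22 from 0; a further 13 lost a call and 2 gained one. Those that turned with no sample left out, with their farthest value over all alternatives, were FTH1 between compounds 5 and 4 (-0.015, to 0.087) and, between compounds 5 and 6, FTL (-0.016, to 0.058), SLC40A1 (0.0085, to -0.071) and SLC11A2 (0.0501, to -0.048). The counts of called members ranged, on leaving out single samples, from 0 to 5 (compound 4), 1 to 7 (compound 5) and 0 to 4 (compound 6), from 0 to 1 for compound 5 against 4, from 0 to 2 for compound 5 against 6, and stayed at 0 for compound 4 against 6. Those of the other pathway genes ranged from 5 to 15, 7 to 34 and 0 to 13. Where a sample was left out of a pair, the lone sample was assumed to vary like the other groups. With upper-quartile scaling and with library size only, 2 members were called between compounds 5 and 4 and 1 between compounds 5 and 6; these scalings moved the median of all genes with compound 5 to -0.118 and -0.136. Of the other pathway genes with compound 6, 5 were called, against 9 with DESeq2, 16 with no filter, 8 with at least 10 counts in every sample and 10 with only the groups compared. Over all tested genes the counts in the same order were 590, 717, 1425, 685 and 881. The cause was not tested. With the replicate block the counts of members were 4, 4 and 2 against DMSO, and those of the other pathway genes 13, 29 and 7; beyond the calls given with a blocked value in the report, CP with compound 5 (adjusted p = 0.0313) gained one, while PCBP1 between compounds 5 and 6 (0.0531) and SMAD5 between compounds 5 and 4 (0.0586) lost theirs, and no other member or pathway call changed; BMP4, CP and SMAD5 were named after their values were seen. With 2 samples per group, a change near 0.3 on the log2 scale, as in FTH1 and TFRC, lay at the edge of what passed.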

Other observations

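Among 10542 tested genes that averaged 5 CPM or more, those whose changes with the 3 compounds were most like those of HAMP included an unnamed gene (ENSG00000231683), ADCY7, CYP2S1 and CYP2B6, with root mean square differences of 0.0987, 0.121, 0.138 and 0.142 in log2 fold change. CYP2S1, a cytochrome P450 induced through the aryl hydrocarbon receptor, was at 1.62, 1.56 and 1.52 with compounds 4, 5 and 6. CYP2B6, a cytochrome P450 of drug metabolism, was at 1.21, 1.58 and 1.38, and ADCY7, an adenylate cyclase, at 1.29, 1.68 and 1.48. The likeness is a description over 3 comparisons that share their control samples.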
